A study of Bos taurus with 30 samples.

Results

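HSD3B1 and 9 other genes of steroid hormone synthesis and inactivation were examined in day 15 bovine embryos produced in vitro (IVP) or in vivo (IVV). The 10 genes, taken from 35092 genes in the count table, were HSD3B1 (gene ID 281824), STAR (281507), CYP11A1 (338048), CYP17A1 (281739), CYP19A1 (281740), HSD17B1 (353107), HSD11B2 (282434), SULT1E1 (280934), FDX1 (281157) and FDXR (282604). They were chosen on values measured in these libraries: HSD3B1 because it was higher in IVP than in IVV embryos in both tissues, and the others as steps of the same pathway, listed with those results known. The contrast of IVP with IVV is therefore a description for these genes and carries no test. The contrast of the embryonic disc (ED) with the extra-embryonic membranes (EEM) was not used in the choice and was tested. The interaction of tissue and procedure is built partly from the values that chose HSD3B1 and were known for the others, so it is a description for all 10.

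The study asked how in vitro procedures alter the transcriptome of elongated embryos. Each library is 1 tissue of 1 Bos taurus embryo flushed at day 15, and all groups share 1 Holstein sire and Holstein dams. IVP embryos were grown in serum-free medium from slaughterhouse oocytes, moved to recipient cows at day 7 and flushed from them. IVV embryos came from artificial insemination of cows under ovarian super-stimulation and were flushed from those donors. There were 30 libraries from 17 embryos: 7 IVP and 9 IVV libraries of the ED, and 6 IVP and 8 IVV libraries of the EEM, with both tissues from 13 embryos (5 IVP, 8 IVV). Embryos are counted by the names in the sample titles, which name more IVP embryos than the text of the study does. The methods name a pair of recipients and a pair of donors, so embryos of 1 procedure share cows, and effects of the cows cannot be told apart from those of the procedure. The labels do not tie embryos to cows, so the spread among embryos may be smaller than that among cows. The study also reported that IVP embryos were shorter than IVV embryos. Embryos without a disc were discarded, and a disc was found in a smaller share of IVP embryos. The labels give no lengths, so effects of size and of this selection cannot be told apart from those of the procedure.

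Steroid synthesis starts when StAR moves cholesterol to the inner mitochondrial membrane, where CYP11A1, fed with electrons by FDXR and FDX1, cuts its side chain to give pregnenolone. The 3β-hydroxysteroid dehydrogenase encoded by HSD3B1 turns pregnenolone into progesterone, CYP17A1 leads on to androgens, and aromatase (CYP19A1) and HSD17B1 lead to estradiol, while SULT1E1 and HSD11B2 inactivate estrogens and cortisol. In ruminants the trophoblast, the outer epithelium of the conceptus, is known to make steroids and prostaglandins while it elongates, next to interferon tau, the signal by which pregnancy is recognized.

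Library totals ran from 48713218 to 63037371 counts. Values are CPM, the counts of a gene relative to the library total, scaled with TMM factors. Over the embryos with both tissues, 7 of 8 tested epiblast markers were higher in the ED, beside 14.4% of all genes. NANOG and POU5F1 were among them, while SOX2 was at 0 counts in all libraries. The tissues of IVP11 were not set apart, with summed epiblast markers of 238 CPM in the ED and 239 CPM in the EEM. Its summed trophoblast markers were 78818 CPM in the ED and 74178 CPM in the EEM. The ED libraries were not free of trophoblast: the summed level of 18 trophoblast markers ran from 14211 to 78818 CPM in the ED of IVP embryos and from 35219.8 to 53919 CPM in the ED of IVV embryos, against 39721 to 92939.8 CPM and 39192 to 72510.1 CPM in the EEM of IVP and IVV embryos. XIST, transcribed from the inactive X chromosome of females, was under 1 CPM in all 13 IVP libraries and in both tissues of the IVV embryos VE3 and VE5, and between 44.9 and 421 CPM in the other IVV libraries, so XIST state moved with the procedure. In the ED, 9 of 10 mesoderm markers were lower in IVP embryos, beside 4.95% of all genes, with a summed level of 7.76 to 18.6 CPM against 36.0 to 168 CPM in the IVV embryos.

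HSD3B1 was about 4 times higher in IVP than in IVV embryos in both tissues, the difference for which it was chosen. In the ED of IVP embryos it lay between 41.9 CPM (IVPF10) and 188 CPM (IVP10), with a median of 153 CPM and a mean of 141 ± 50.8 CPM (SD, n = 7). In the ED of IVV embryos it lay between 20.6 CPM (VE5) and 59.5 CPM (VE24), with a median of 25.9 CPM and a mean of 33.2 ± 14.5 CPM (SD, n = 9). Of the 7 IVP discs, 6 were above all 9 IVV discs, and IVPF10 fell inside the IVV range.

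In the EEM the IVP embryos ran from 155 CPM (IVPF13) to 283 CPM (IVPF9), with a median of 198 CPM and a mean of 205 ± 48.6 CPM (SD, n = 6). Their IVV counterparts ran from 20.9 CPM (VE3) to 77.0 CPM (VE19), with a median of 48.2 CPM and a mean of 49.4 ± 22.1 CPM (SD, n = 8). Here the groups did not overlap. The fitted log2 fold change of IVP against IVV was 2.08 (SE 0.28) in the ED and 2.09 (SE 0.28) in the EEM, or 4.23-fold and 4.25-fold. The levels rested on 1079 to 16109 counts per library, so counting error was small beside the spread among embryos. In bulk tissue, more cells that express a gene and more RNA per cell cannot be told apart.

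**Figure D1:**
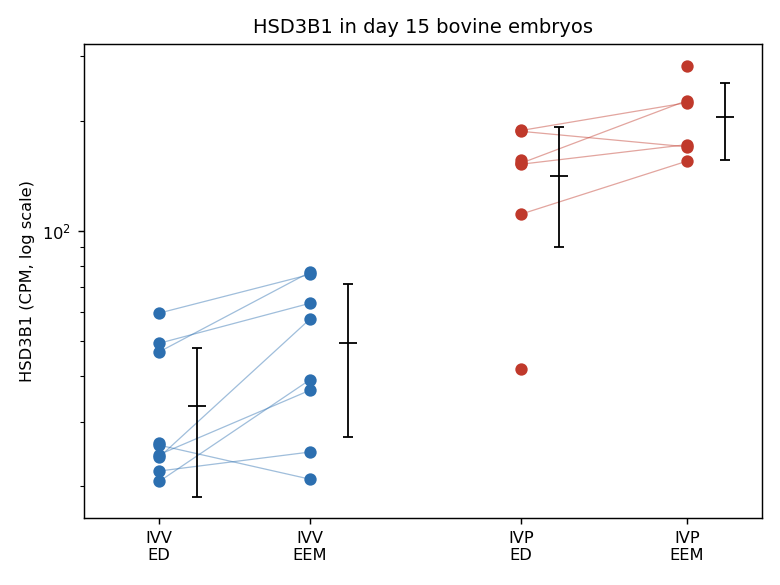
HSD3B1 in CPM (log axis) in every library, by procedure and tissue. Thin lines join ED and EEM of 1 embryo, and the horizontal bars with whiskers are the group mean ± SD. All 6 IVP libraries of the EEM (155 to 283 CPM) sit above the 8 IVV libraries (20.9 to 77.0 CPM), and in the ED the IVP library at 41.9 CPM is IVPF10.

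The level of HSD3B1 thus fell in the order EEM of IVP, ED of IVP, EEM of IVV and ED of IVV. The ranges of the ED and EEM overlapped within each procedure, and the ED of IVP and the EEM of IVV overlapped through IVPF10. That library also held the lowest summed trophoblast markers of its group (14211 CPM, the next being 36325 CPM) and the lowest HSD17B1, FDX1 and CYP17A1, but the highest STAR (9.98 CPM). Over the whole series the trophoblast sum overlapped between procedures in both tissues, with medians of 43879.9 CPM (IVP) and 40523 CPM (IVV) in the ED and of 61917 CPM (IVP) and 62188 CPM (IVV) in the EEM. Of 18 trophoblast markers, 0 passed the test of IVP against IVV in either tissue. Their log2 values were above 0 for 14 in the ED (median 0.26) and 10 in the EEM (median 0.06). The medians over all genes were -0.01 and 0.00. The IVV embryos with XIST under 1 CPM had HSD3B1 at 25.9 CPM (VE3) and 20.6 CPM (VE5) in the ED and at 20.9 and 39.1 CPM in the EEM, inside the range of the other IVV embryos or below it. Among embryos with XIST under 1 CPM alone, the fitted log2 fold change was 2.58 (SE 0.58) in the ED and 2.79 (SE 0.39) in the EEM. With all embryos it was 2.08 (SE 0.28) and 2.09 (SE 0.28). That subset was added after seeing the data and held only VE3 and VE5 as IVV embryos. Whether XIST state or trophoblast content has a part in the level of HSD3B1 was not tested.

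CYP11A1 makes the substrate of HSD3B1. It was 15.2 ± 10.8 CPM in IVP discs (SD, n = 7) and 9.17 ± 4.54 CPM in IVV discs (SD, n = 9), with ranges of 7.36 to 38.3 CPM and 4.02 to 19.2 CPM. In the EEM it was 23.5 ± 11.5 CPM (SD, n = 6) against 13.5 ± 5.71 CPM (SD, n = 8), with ranges of 11.8 to 39.8 CPM and 6.50 to 23.9 CPM. The groups overlapped in both tissues, and the fitted log2 values were 0.56 (SE 0.33) and 0.83 (SE 0.30). The highest IVP values in both tissues came from the same embryo, IVP11, without which the log2 values were 0.26 and 0.50, and the highest IVV values from VE4.

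STAR was 6.54 ± 2.60 CPM in IVP discs (SD, n = 7) and 5.73 ± 2.13 CPM in their IVV counterparts (SD, n = 9). In the membranes it was 5.49 ± 2.15 CPM in IVP embryos (SD, n = 6) and 3.83 ± 3.28 CPM in their IVV counterparts (SD, n = 8), where VE19 at 11.0 CPM stood above the IVP maximum of 8.62 CPM and the median was 2.36 CPM. The fitted log2 value was 0.17 (SE 0.29) in the ED, -0.02 without IVPF10, and 0.89 (SE 0.32) in the EEM.

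The electron carriers lay close together in the 2 procedures. FDX1 was 30.3 ± 15.9 CPM in IVP discs (SD, n = 7) and 29.5 ± 6.91 CPM in their IVV counterparts (SD, n = 9), and 46.1 ± 15.4 CPM (SD, n = 6) and 39.9 ± 12.0 CPM (SD, n = 8) in the membranes. FDXR was 59.6 ± 26 and 47.9 ± 19.1 CPM in IVP and IVV discs, and 68.8 ± 29.7 and 62.8 ± 22.0 CPM in IVP and IVV membranes (same n). The fitted log2 values were 0.03 (SE 0.29) and 0.20 (SE 0.25) for FDX1, and 0.37 (SE 0.26) and 0.20 (SE 0.24) for FDXR, in the ED and EEM. Without IVP11 the FDXR values were 0.08 and 0.05, and without IVP10 the FDX1 value in the ED was -0.15. Each group spread over more than this: FDXR in IVP discs alone ran from 17.6 CPM (IVP10) to 106 CPM (IVP11).

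Of the genes past progesterone, HSD17B1 had group means that differed between procedures by less than its spread. It was 422 ± 242 CPM in IVP discs (SD, n = 7) and 421 ± 93.8 CPM in their IVV counterparts (SD, n = 9), and 784 ± 620.1 CPM (SD, n = 6) and 825 ± 145 CPM (SD, n = 8) in the membranes, with fitted log2 values of -0.04 (SE 0.28) and -0.07 (SE 0.35). The groups differed in width. IVP membranes ran from 164 CPM (IVPF14) to 1573 CPM (IVPF13), a ratio of 9.59, and IVV membranes from 618 CPM (VE4) to 1010.0 CPM (VE28), a ratio of 1.63. The IVP discs ran from 89.2 CPM (IVPF10) to 726 CPM (IVP11), against 288 CPM (VE6) to 599.8 CPM (VE3) in the IVV discs. Trophoblast markers spread more widely in IVP embryos as well, as the sums above show, and the membranes with the most HSD17B1, IVPF13 and IVP10 (1549 CPM), also had the highest trophoblast sums of their group (92939.8 and 75511 CPM). The difference in width and the part of trophoblast content in it were not tested.

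CYP19A1 was low and varied among embryos. Its mean was 3.71 ± 2.44 CPM in IVP discs (SD, n = 7) and 2.01 ± 1.89 CPM in their IVV counterparts (SD, n = 9), and 2.52 ± 1.97 CPM (SD, n = 6) and 2.39 ± 1.91 CPM (SD, n = 8) in IVP and IVV membranes. The IVV embryo VE19 was lowest in both tissues, with 8 counts in the ED and 1 count in the EEM, and VE4 was highest among IVV embryos in both, with 365 and 292 counts. CYP17A1 was near the limit of detection, at 0 to 45 counts per library, with group means between 0.159 and 0.322 CPM. Fitted log2 values of IVP against IVV were 0.95 (SE 0.48) and 0.42 (SE 0.52) for CYP19A1, and -0.48 (SE 0.40) and -0.52 (SE 0.53) for CYP17A1. In the EEM the sign turned for CYP19A1 without IVPF13 (-0.21) or VE19 (-0.03), and for CYP17A1 with XIST as a covariate (0.47) or among embryos with XIST under 1 CPM (1.70).

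SULT1E1, the estrogen sulfotransferase, was the other gene called higher in IVP embryos in both tissues. That call was kept in 7 of 16 fits without 1 embryo and 8 of 13 other settings in the ED, and in 4 of 14 and 8 of 12 in the EEM. Since the gene was listed with the results of this contrast known, the call and its tally are a description and no test. It was 4.84 ± 1.86 CPM in IVP discs (SD, n = 7) and 1.99 ± 1.21 CPM in their IVV counterparts (SD, n = 9), and 2.23 ± 1.24 CPM (SD, n = 6) and 0.746 ± 0.473 CPM (SD, n = 8) in the membranes. The fitted log2 fold changes were 1.16 (SE 0.33) and 1.53 (SE 0.43). The groups overlapped: IVP11 at 1.57 CPM was below the IVV median of 1.72 CPM in the ED, while VE4 reached 4.72 CPM.

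HSD11B2 went the other way. In the EEM of IVP embryos it held 0 counts in IVP10, IVP11, IVP14 and IVPF14 and 1 count in each of IVPF13 and IVPF9, all at or under a floor of 3 counts per library. In the EEM of IVV embryos it held 21 to 51 counts in 6 embryos, but 0 in VE5 and 1 in VE26. Against a floor of 0.0588 CPM and an IVV mean of 0.547 CPM, the level in IVP membranes was at least 9.31-fold lower. In the discs it held 3 counts in IVP10, at the floor, and more in the other embryos, with means of 0.274 ± 0.180 CPM in IVP embryos (SD, n = 7) and 0.726 ± 0.375 CPM in their IVV counterparts (SD, n = 9), a fitted log2 value of -1.29 (SE 0.45). These limits cover counting error only.

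**Figure D2:**
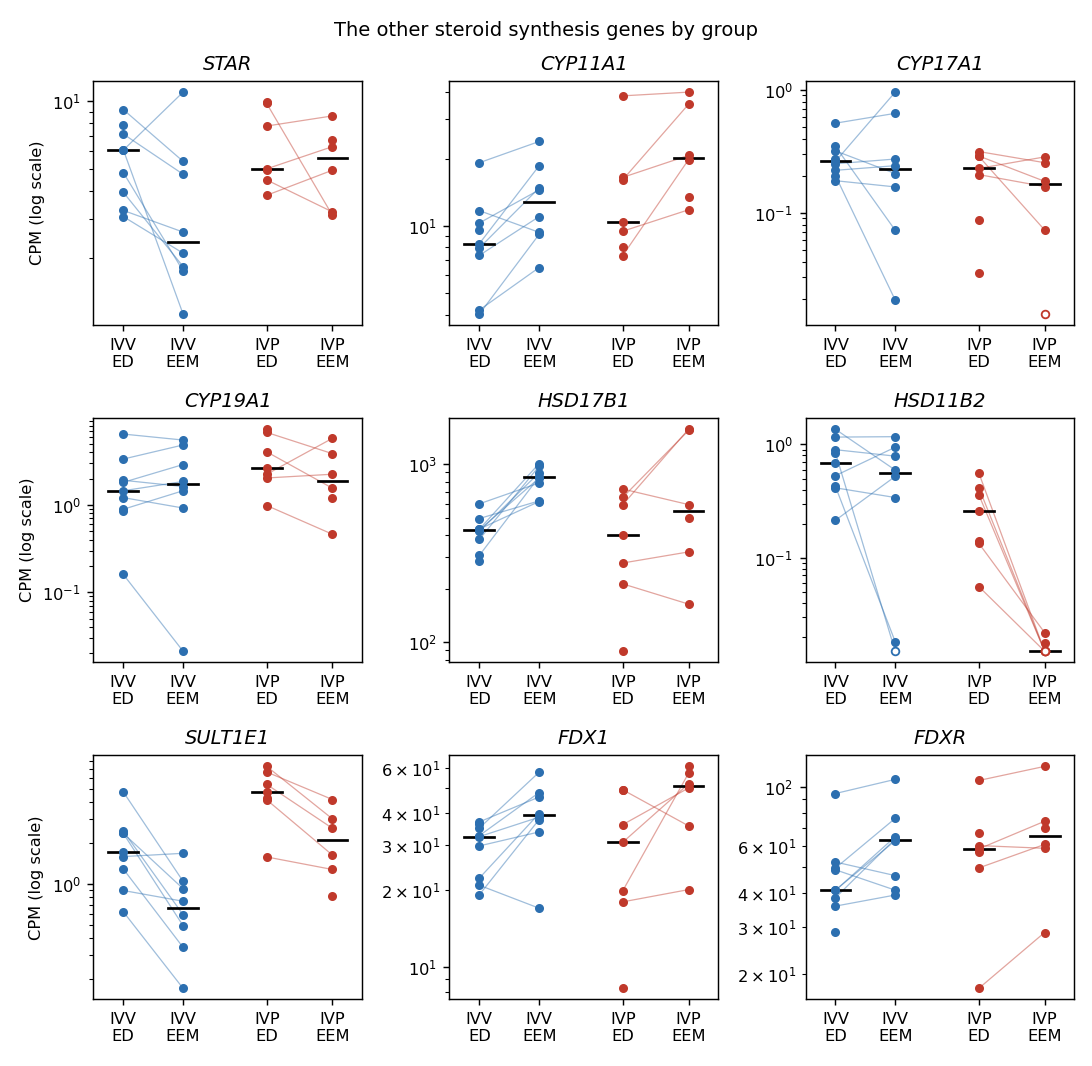
The other 9 genes in CPM (log axis) in every library, by procedure and tissue. Thin lines join ED and EEM of 1 embryo, horizontal bars are group medians, and open circles stand for libraries with 0 counts, drawn at the foot of the axis. HSD11B2 is at 0 or 1 counts in all 6 IVP libraries of the EEM, and HSD17B1 spans 164 to 1573 CPM in the IVP against 618 to 1010.0 CPM in the IVV membranes.

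All 10 genes passed the filter on low counts in each comparison. In the ED, 2 of the 10 (HSD3B1 and SULT1E1) were called higher and 0 lower in IVP, while 1.40% of the 15733 genes tested were called higher and 4.95% lower. In the EEM, 2 of the 10 (the same pair) were called higher and 1 (HSD11B2) lower, against 2.29% and 1.52% of 14718 genes. HSD11B2 passed the filter there through the IVV libraries, and fell under it without any 1 of VE3, VE4, VE19, VE24, VE28 and VE29. Groups that did not overlap were found for 0 of the 10 in the ED and 1 (HSD3B1) in the EEM, and for 0.864% and 0.904% of all genes tested. Since this contrast chose the genes, nothing is read from these counts. The median log2 value over the 10 was 0.27 in the ED and 0.31 in the EEM, beside -0.01 and 0.00 over all genes tested, and 7 of the 10 values were above 0 in each tissue.

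**Figure D3:**
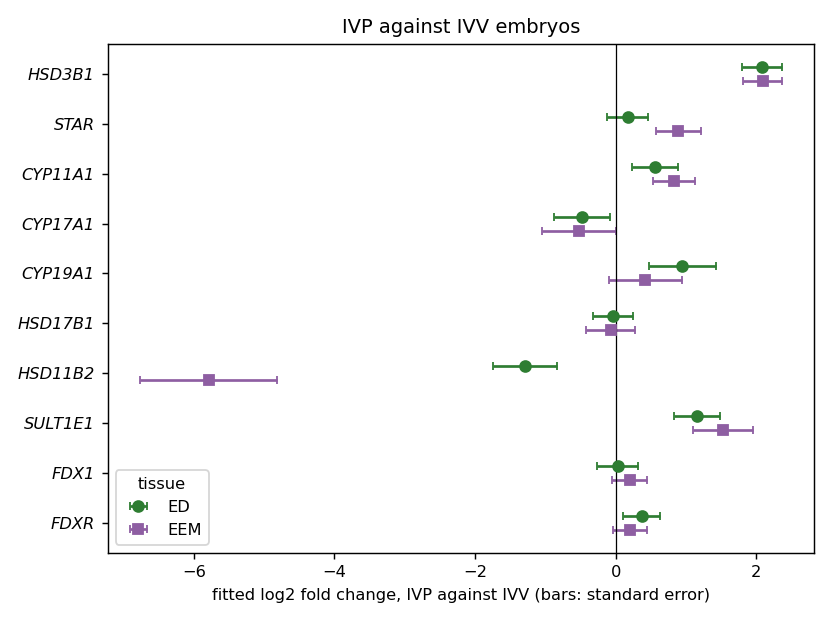
Fitted log2 fold change of IVP against IVV embryos for each of the 10 genes, in the ED (circles) and EEM (squares). Bars are standard errors. HSD3B1 lies at 2.08 and 2.09, and the EEM value of HSD11B2 is a fit against libraries at 0 or 1 counts and is no bound.

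ED and EEM were compared next within the 13 embryos that gave both, with edgeR's quasi-likelihood test, the embryo as a block and Benjamini-Hochberg adjustment over all 16784 genes tested. Of the 10 genes, 6 passed: HSD3B1, CYP11A1, FDX1, FDXR and HSD17B1 were lower in the ED, and SULT1E1 was higher. Over all genes, 14.4% were higher and 10.1% lower in the ED. None of the 10 differed in the same direction in all 13 embryos, as 5.94% of all genes did. The median over the 10 genes was -0.11, beside -0.09 over all genes.

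HSD3B1 was lower in the ED by a log2 value of -0.42 (SE 0.11, adjusted p = 0.00904), or 1.34-fold, and was higher in the ED in 2 of 13 embryos. The differences of single embryos ran from -1.25 (VE29) to 0.31 (VE3) with a median of -0.36. The step between tissues was -0.50 (SE 0.15, adjusted p = 0.0173) within the 8 IVV embryos and -0.30 (SE 0.18, adjusted p = 0.430) within the 5 IVP embryos. The interaction of tissue and procedure was 0.20 (SE 0.23, 95% interval -0.29 to 0.68, adjusted p = 0.896). HSD3B1 was chosen for being higher in IVP embryos in both tissues, which favours a small interaction, so this value is a description. With all 13 embryos, the filter and the block, the interaction passed edgeR's test for 1.02% of the 16784 genes and for 0 of the 10, with 1727 of those genes at an unadjusted p under 0.05.

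Of the enzymes and carriers upstream of HSD3B1, CYP11A1 was lower in the ED by -0.64 (SE 0.13, adjusted p = 0.00154), with 1 of 13 embryos (VE24) higher in the ED. FDX1 was lower by -0.47 (SE 0.14, adjusted p = 0.0160), and FDXR by -0.31 (SE 0.10, adjusted p = 0.0259). They were higher in the ED in 2 and 3 of 13 embryos. The call of FDXR was lost without VE5, VE26, VE28 or VE29, with adjusted p from 0.0555 to 0.0756, with no filter (0.0536) and with at least 10 counts in every library (0.0964). STAR had the opposite sign, 0.56 (SE 0.23), and did not pass (adjusted p = 0.0764). It was higher in the ED in 9 of 13 embryos, 7 of 8 IVV and 2 of 5 IVP, with an interaction of -0.59 (SE 0.45, adjusted p = 0.764), and passed without VE19 (0.69, adjusted p = 0.0306) and with DESeq2 (0.60, adjusted p = 0.0324). Within the 8 IVV embryos the step was 0.79 (SE 0.28, adjusted p = 0.0484), and within the 5 IVP embryos 0.20 (SE 0.35, adjusted p = 0.824).

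HSD17B1 had the largest fall in the ED among the 10, -0.74 (SE 0.16, adjusted p = 0.00174), and was lower in the ED in 8 of 8 IVV embryos and in 3 of 5 IVP embryos. SULT1E1 had the one rise that passed, 1.24 (SE 0.21, adjusted p = 0.000222) or 2.36-fold, and was higher in the ED in 12 of 13 embryos, the exception being VE28 at -0.08. CYP19A1 and CYP17A1 did not pass, with 0.09 (SE 0.23, 95% interval -0.40 to 0.57, adjusted p = 0.809) and 0.39 (SE 0.36, 95% interval -0.37 to 1.16, adjusted p = 0.447). HSD11B2 was 1.72 (SE 0.68, adjusted p = 0.0722) over the 13 embryos. In the 5 IVP embryos it held 3 to 29 counts in the ED and 0 or 1 in the EEM, whereas in the 8 IVV embryos 5 were higher and 3 lower in the ED. The interaction in edgeR's fit was 4.78 (SE 1.45, adjusted p = 0.133), a fit against libraries near 0 that is no bound. The value over the 13 embryos passed without VE3 (2.06, adjusted p = 0.0409) or VE4 (2.06, adjusted p = 0.0447), with DESeq2 (2.38, adjusted p = 0.00191) and with no filter (1.74, adjusted p = 0.0472). The adjusted p of the interaction fell under 0.05 without VE5 (5.19, adjusted p = 0.0413), with DESeq2 (4.65, adjusted p = 0.0315), with no filter (4.81, adjusted p = 0.0367) and with no replicate block (5.14, adjusted p = 0.0396). Since the IVP and IVV values of HSD11B2 were known when it was listed, these interaction values are a description and no test.

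**Figure D4:**
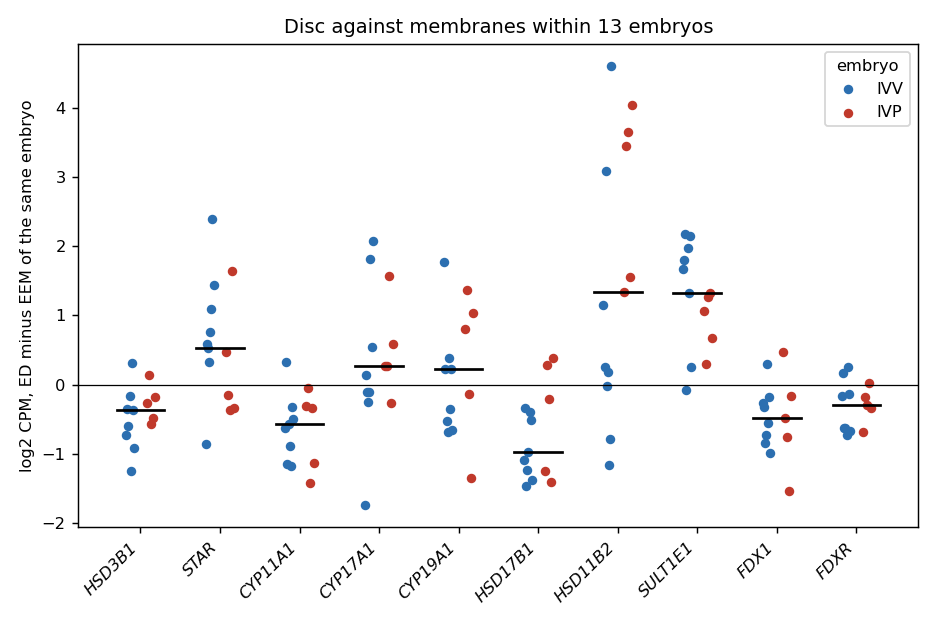
Difference of log2 CPM between ED and EEM of the same embryo for the 10 genes, with 1 point per embryo (8 IVV, 5 IVP) and the median as a bar. HSD17B1 is below 0 in all 8 IVV embryos, SULT1E1 is above 0 in 12 of 13 embryos, and HSD11B2 runs from -1.16 to 4.60.

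Of 18 trophoblast markers, 7 were lower in the ED and 1 (HAND1, which mesoderm also expresses) higher, beside 10.1% and 14.4% of all genes, with a median of -0.32 against -0.09. KRT18, a keratin of the trophoblast epithelium, was lower by -0.47 (SE 0.09, adjusted p = 0.000719) and was lower in the ED in all 13 embryos, a step close to those of HSD3B1 and FDX1. Whether the trophoblast content of the ED samples has a part in the lower levels of these genes was not tested. Scaling changed some of these calls. With upper quartile factors the median over all genes moved from -0.09 to 0.03, the split of calls moved from 2412 higher and 1692 lower to 2863 and 517, and HSD3B1 (-0.30, adjusted p = 0.0634), FDX1 (-0.34, adjusted p = 0.0683) and FDXR (-0.19, adjusted p = 0.198) no longer passed, while STAR did (0.69, adjusted p = 0.0396). CYP11A1, HSD17B1 and SULT1E1 kept their calls there. In 1 embryo, IVPF13, the ED library resembled the EEM of IVPF14 more than its own EEM. Without IVPF13 the log2 value was -0.42 (SE 0.12, adjusted p = 0.0141) for HSD3B1, -0.66 for CYP11A1, -0.69 for HSD17B1, 1.23 for SULT1E1, -0.38 for FDX1 and -0.34 for FDXR, and all 6 calls were kept.

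Whether the level of a gene in the ED followed that in the EEM of the same embryo was asked within the 8 IVV embryos, on log2 CPM, with exact permutation tests and adjustment over the 10 genes. CYP19A1 did: Pearson's r was 0.95 (exact permutation p = 0.000744, adjusted p = 0.00744) and Spearman's rho 0.90 (exact permutation p = 0.00456, adjusted p = 0.0456). Without the 2 embryos farthest from the ED median, VE19 and VE4, r was 0.82. Without VE19 alone r was 0.88 (exact permutation p = 0.00813), and the adjusted p was above 0.05. HSD3B1 had r = 0.75 (exact permutation p = 0.0464, adjusted p = 0.155) and rho = 0.57 (exact permutation p = 0.151, adjusted p = 0.302), and CYP11A1 had r = 0.76 (exact permutation p = 0.0298, adjusted p = 0.149). HSD17B1 had the lowest value, r = -0.36 (exact permutation p = 0.385, adjusted p = 0.428), in a group where its whole range was narrow.

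Genes with a pattern like that of HSD3B1 were looked for among 14308 named genes over the 30 libraries. The highest Spearman's rho were those of AHNAK (0.84), a large scaffold protein, CRYBG2 (0.80), ADAP2 (0.80), BCL3 (0.78), a cofactor of NF-κB, and TGM2 (0.78), a transglutaminase. Each of the 5 had higher means in IVP than in IVV embryos in both tissues. TGM2 was 87.9 CPM (IVP) and 28.8 CPM (IVV) in the ED, and BCL3 19.1 and 5.74 CPM. Once group means were taken off, the genes with the highest Pearson's r included PPM1K (0.74), SPHK2 (0.74), CRYBG2 (0.72) and ERC1 (0.68). CRYBG2 was the gene found by both measures. The libraries share embryos, so these values describe likeness only. Among the other 9 steroid genes rho ran from -0.61 (HSD11B2) to 0.49 (CYP11A1), and within groups r ran from -0.31 (SULT1E1) to 0.36 (FDX1).

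Genes around the pathway were followed from lists that were written with earlier results of these data known. Their counts stand beside 1.40% of all genes called higher and 4.95% lower in IVP in the ED, and 2.29% and 1.52% in the EEM. Of 20 other steroid enzymes tested in the ED, 0 passed between IVP and IVV embryos. In the EEM 1 of 17 passed, CYP1B1, a hydroxylase of estrogens, which was higher in IVP (5.88 against 1.74 CPM, log2 1.93, SE 0.55, adjusted p = 0.0491). None of 7 redox partners such as POR and CYB5A passed in either tissue, and none of 25 genes of cholesterol synthesis. For the latter the median log2 value was -0.13 in the ED and 0.05 in the EEM. None of 16 (ED) or 15 (EEM) steroid receptors and their chaperones passed.

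Single genes of cholesterol handling passed in the ED. Of 16 genes of uptake, storage and export, ABCA1, which exports cholesterol (131 against 66.7 CPM, log2 0.84), and SOAT1, which esterifies it for storage (516 against 297 CPM, log2 0.75), were higher in IVP discs, and LRP1, a lipoprotein receptor, was lower (28.1 against 49 CPM, log2 -0.94). Of 10 genes of delivery to mitochondria 1 was lower, LIPA, the lysosomal cholesterol esterase (13.2 against 27.8 CPM, log2 -1.14). In the EEM 0 of 14 and 0 of 10 passed. LRP1 and LIPA were also higher in the ED than in the EEM, by 1.52 (SE 0.18) and 1.63 (SE 0.26), in 13 and 12 of 13 embryos. Whether the difference of these genes between procedures was unlike in the tissues was tested by the interaction, and 0 of them passed.

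Among 23 regulators of steroidogenic genes, none passed as higher in IVP embryos. NR4A1, an orphan receptor induced by early signals, was lower in the ED (9.79 against 27.7 CPM, log2 -1.86) and in the EEM (5.64 against 22.0 CPM, log2 -1.97). NR4A2 was lower in the EEM (3.73 against 9.22 CPM, log2 -1.23). NR2F1 was lower in IVP discs (0.0598 against 0.268 CPM, log2 -2.31), a fit against libraries near the floor that is no bound, in a gene that passed the filter through the IVV discs. It was not tested in the EEM, where its means were 0.255 (IVP) and 0.0692 CPM (IVV), and its interaction (-5.14, adjusted p = 0.0174) has the same limit. NR5A1, which encodes steroidogenic factor SF-1, had means of 1.65 (IVP) and 0.689 CPM (IVV) in the ED and of 1.58 and 0.827 CPM in the EEM, and passed in neither. GATA2 and CITED2, abundant members of the list, passed in neither as well.

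**Figure D5:**
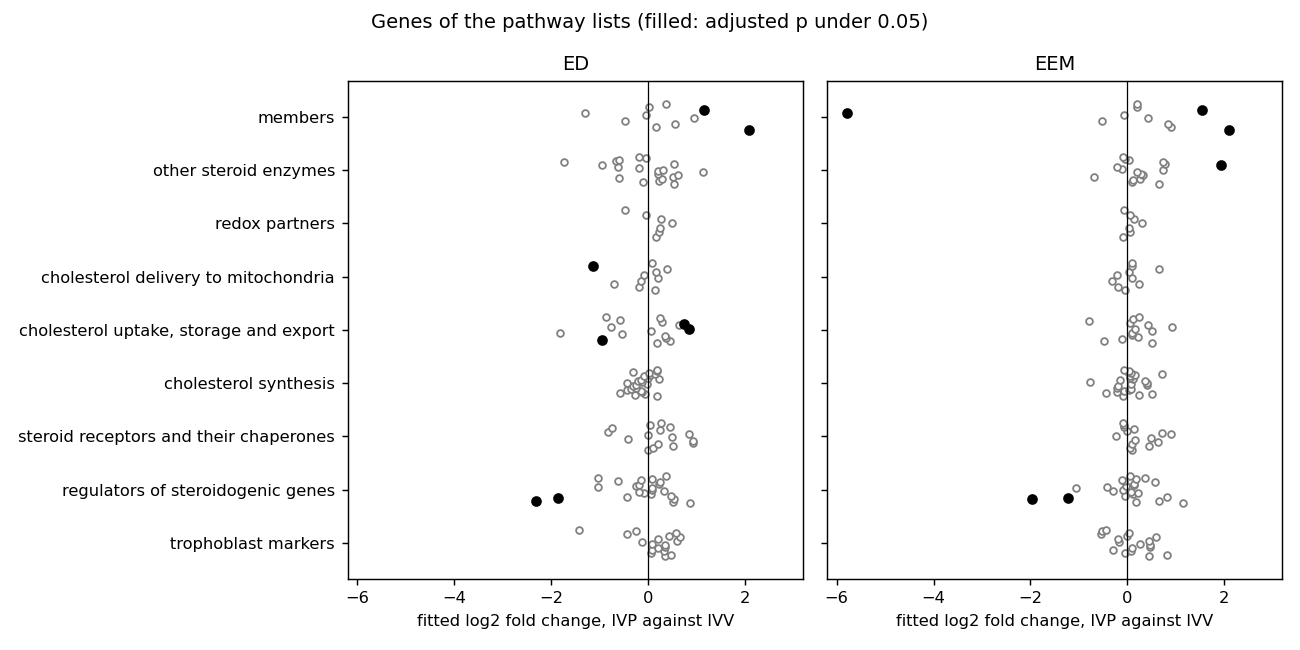
Fitted log2 fold change of IVP against IVV embryos for the 10 genes and the lists around them, in the ED (left) and EEM (right), with 1 point per gene tested. Filled points passed an adjusted p under 0.05. The filled point near 1.93 among other steroid enzymes of the EEM is CYP1B1, and no gene of cholesterol synthesis is filled in either panel.

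The counts between tissues stand beside 14.4% of all genes higher and 10.1% lower in the ED. Of 21 other steroid enzymes, 5 were higher in the ED: CYP27A1, the sterol 27-hydroxylase (higher in 13 of 13 embryos, with EEM means of 0.0577 and 0.0811 CPM near the floor, so that its fold is not given), STS, which takes sulfate off steroids and so opposes SULT1E1 (1.87, SE 0.26, 13 of 13), CYP1B1 (2.08, SE 0.46), CYP46A1 and PAPSS2, which makes the sulfate donor. PAPSS1, which makes the same donor, did not pass in that edgeR test (0.05, SE 0.09, adjusted p = 0.716). The 4 enzymes that were lower in the ED were HSD17B14 (-0.57, SE 0.12), HSD17B11 (-0.42, SE 0.12), HSD17B10 (-0.34, SE 0.10) and HSD17B8. HSD17B2 (1.33), HSD17B7 (0.33), HSD17B4 (-0.14) and HSD17B12 (-0.09) did not pass. Of 7 redox partners, FDX2 was lower in the ED (-0.38, SE 0.11), as FDX1 and FDXR were, and NNT, a mitochondrial source of NADPH, was higher (0.61, SE 0.13, 13 of 13 embryos). Of 25 genes of cholesterol synthesis, 2 were higher in the ED, among them INSIG1 (0.37, SE 0.12), which holds back sterol synthesis, and 0 lower. SULT1E1 and STS, which act in opposite directions on estrogen sulfate, were thus both higher in the ED of at least 12 of 13 embryos.

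Markers of other cells were followed in the same libraries. Of 9 uterine markers, PAEP was at 0 in all libraries and SERPINA14, the uterine milk protein, had group means of at most 0.0153 CPM. Of 6 uterine markers tested in the ED, 1 was higher in IVP discs and 0 lower, beside 1.40% and 4.95% of all genes. It was MUC1, an epithelial mucin (14.2 against 6.65 CPM, log2 1.10). The median log2 value over the 6 was -0.04, with 2 of them above 0. The summed level of the 9 ran from 21.8 to 51.8 CPM in IVP and 15.2 to 36.8 CPM in IVV discs, and from 28.2 to 50.7 and 14.9 to 45.5 CPM in the membranes. The 6 markers of trophoblast giant cells in the table include HSD11B2 itself, described above. Of the others, CSH2 and PRP1 had group means of at most 0.00450 CPM and BERV-K1 was at 0, while PAG1 had group means of 2.36 to 3.40 CPM. PAG1 was matched by its symbol alone, and whether that row is the pregnancy-associated glycoprotein of giant cells was not checked. Whether cells of these kinds have a part in the levels above was not tested.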

How the data were processed

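RNA of the ED and EEM was sequenced from non-stranded, poly(A)-selected libraries. The authors filtered the reads with SOAPnuke, mapped them with STAR 2.7.0b on the ARS-UCD1.3 assembly and used featureCounts for the counting, and they deposited raw counts for 35092 Entrez gene IDs in 30 columns, all used here. How reads shared by near-identical genes were counted is not given in the sources used here, and the counts of antisense partners cannot be told apart. Symbols were looked up in RefSeq's table for ARS-UCD2.0, which named 31630 IDs. It is another assembly, so no coordinates are given, and without transcript lengths levels were not compared between genes.

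The 10 genes and the lists around them were chosen with earlier results of these data known. All 10 are described. From each list the text names at most 3 genes per direction with the smallest p and 2 abundant others, and a few further genes were named after their values were seen. Some genes that this rule would name are not reported here. Counts were tested with edgeR 4.0.16 in R 4.3.3: TMM factors, filterByExpr with at least 10 counts, the quasi-likelihood test, and Benjamini-Hochberg adjustment over all genes tested at 0.05. IVP and IVV were compared in each tissue with 1 surrogate variable from svaseq (sva 3.50.0), since the study controlled for morphology with sva. ED and EEM, and their interaction with procedure, were compared with the embryo as a block. The labels name the ED and EEM of an embryo alike. Their deviations from group means correlated above 0.1 in 12 of 13 embryos, with a median r of 0.60 against -0.10 between embryos, while IVPF13 gave -0.37, and its ED had r = 0.65 with the EEM of IVPF14. The log2 CPM carry a prior count of 2. The standard error is the log2 value divided by the root of its F statistic. The 95% intervals use it with the total degrees of freedom of the quasi-likelihood test, residual and prior. Scripts were tested on simulated data. Alternatives were DESeq2 1.42.0, voom of limma 3.58.1, none or 2 surrogate variables, other scaling and filters, subsets of embryos, further terms and leaving out each embryo. Halved counts and the subset of embryos with XIST under 1 CPM were added after seeing the data.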

Additional observations from a re-analysis of the deposited data

Results flagged for a closer look

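Each of the 10 genes was searched for a library apart from the rest of its group, which gave 40 groups, and 6 of them held such a library on the log2 CPM scale. Chance flags about 1 in 20 groups.

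HSD3B1 was far below the rest in the ED of IVPF10, at a log2 CPM of 5.39 (41.9 CPM, the next IVP disc being at 111 CPM). The same library had the lowest HSD17B1, FDX1 and CYP17A1 of its group and the lowest trophoblast marker sum, but the highest STAR (9.98 CPM) and an FDXR of 67.3 CPM, above the group median of 58.7 CPM. CYP19A1 was far below the rest in the EEM of VE19, at -4.12 (0.0212 against 0.920 CPM), where it held 1 count, and it was also lowest in the ED of that embryo.

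SULT1E1 was low in the ED of IVP11, at 0.69 (1.57 against 4.13 CPM). That disc had the highest CYP11A1, HSD17B1 and FDXR of the IVP discs and the highest trophoblast marker sum, 78818 CPM. FDX1 was low in the EEM of VE29, at 4.09 (17.0 against 33.8 CPM).

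FDXR was flagged in both disc groups. It was low in IVP10, at 4.14 (17.6 against 49.8 CPM), with the EEM of the same embryo also lowest of its group at 28.5 CPM. It was high in the ED of VE19, at 6.57 (94.7 against 52.4 CPM), with the EEM of VE19 highest of its group at 107 CPM. In edgeR's fit of all 13 embryos with the filter and the replicate block, 0 of the 10 genes passed for an unlike difference between tissues (172 of all genes passed). The adjusted p of HSD11B2 fell under 0.05 in the alternatives given with its values. That is a description, since its IVP and IVV values were known when it was listed and its IVP membranes held 0 or 1 counts.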

How the results depend on the processing

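HSD3B1 kept its direction under all alternatives. Its log2 value of IVP against IVV ran from 1.95 to 2.24 in the ED and from 1.96 to 2.25 in the EEM when each embryo was left out, and rose in the EEM to 2.83 with XIST as a covariate and 2.79 among embryos with XIST under 1 CPM. The pairing decided its tissue call: the value was -0.42 with the replicate block, and -0.44 (adjusted p = 0.180) with no replicate block, where CYP11A1, FDX1 and FDXR were lost as well. With upper quartile factors it was -0.30. Over the fits that left out 1 embryo it ran from -0.48 to -0.34, and its interaction from 0.13 to 0.31. The count of genes whose ED and EEM levels correlated ran from 0 (without VE19) to 2 (without VE24).

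Genes called numbered 998 in the ED, 1512 with DESeq2, 1846 with no filter, 431 with at least 10 counts in every library, 654 with XIST as a covariate, 206 among embryos with XIST under 1 CPM, and 639 (without VE29) to 1160 when each embryo was left out. In the EEM 561 became 1211, 275, 145 and 139 with no filter, the strict filter, the XIST covariate and the XIST subset, and 426 to 729 without 1 embryo. Between tissues 4104 became 2127 with no replicate block (1982 higher, 145 lower), 1828 with the strict filter, and 3149 to 4439. The interaction count of 172 became 435 (DESeq2), 329 (limma voom), 356 (no filter), 11 (strict filter), and 101 (without VE29) to 211, with 109, 109 and 104 without IVP10, IVPF14 and VE28. The causes were not tested, beyond fewer genes or embryos entering the stricter settings. HSD11B2 gave no EEM value with the strict filter, in the XIST subset and without VE3, VE4, VE19, VE24, VE28 or VE29, since it fell under the filter. Counts of 0 to 45 (CYP17A1) and 0 to 68 (HSD11B2) per library limit what these genes can show.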
